A study of Mus musculus with 6 samples.

Results

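Transcripts of 10 genes that encode NF-κB transcription factor subunits or their inhibitors, the I-κB proteins, were compared between macrophages grown on a pair of titanium surfaces. The members are the rows of the count table with the symbols Nfkb1, Nfkb2, Rel, Rela, Relb, Nfkbia, Nfkbib, Nfkbie, Nfkbiz and Bcl3. All 10 were found among 16171 genes, and all 10 were among the 11480 expressed highly enough to be tested. On the calcium phosphate coating 8 of the 10 fell and 0 rose, against 12.0% lower and 11.6% higher among all tested genes. Bcl3, Nfkbie and Relb showed the largest decreases. Nfkb1 and Rela, which encode the subunits of the best known NF-κB dimer, were not called. The comparison asks how the surface of an implant changes gene expression in macrophages stimulated with bacterial lipopolysaccharide (LPS).

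The cells were Raw264.7, an established mouse macrophage line labelled wild type. TH denotes titanium whose titanate nanowires were made by an alkaline heat treatment, and it served as the control. THCaP denotes titanium that carries a biomimetic nanowire coating of calcium phosphate. Per the labels' protocols, all 6 samples were on their surface for 12 h, were stimulated with 1 µg/mL of LPS (lipopolysaccharide, an outer membrane molecule of bacteria to which macrophages respond with inflammation) for 2 h and were then incubated for 1 d. Every sample thus received LPS, and no sample without LPS enters the comparison. Each surface had 3 RNA-seq libraries of a single cell line, and the labels do not say whether these came from separate cultures, so p-values measure the spread between these libraries, which may be technical.

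NF-κB factors act as dimers of Rel family proteins. The I-κB proteins hold these dimers in the cytoplasm until signals such as LPS, acting through Toll-like receptor 4, lead the I-κB kinase to mark them for degradation. In macrophages the released dimers switch on genes for cytokines, chemokines and enzymes of inflammation, and also several genes of the pathway itself, among them Nfkbia, whose product then ends the response. Rela, Rel and Relb carry their own activation domains, whereas Nfkb1 and Nfkb2 encode precursors that are cut to shorter DNA-binding subunits. Bcl3 and Nfkbiz belong to the I-κB family but act in the nucleus.

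On GRCm38 all 10 members are protein-coding genes. Of the subunit genes, Nfkb1 lies at chr3:135584655-135691547, Nfkb2 at chr19:46304320-46312385, Rel at chr11:23736847-23770970, Rela at chr19:5637483-5648130 and Relb at chr7:19606217-19629438. Of the inhibitor genes, Nfkbia lies at chr12:55489410-55492647, Nfkbib at chr7:28758251-28767512, Nfkbie at chr17:45555703-45563169, Nfkbiz at chr16:55811375-55838899 and Bcl3 at chr7:19808462-19822770. Relb and Bcl3 are thus near each other on chromosome 7, and all other members are far apart or on different chromosomes.

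Because several members are known to be switched on by NF-κB itself, their promoters are shown with the matches to the 10-base κB consensus motif. RefSeq promoter windows on GRCm38.p6, running from 250 bases before to 50 bases after an annotated start site, were found for 7 of the 10 members. Those of Nfkb1, Relb and Nfkbiz were not in the table. The motif was searched by its consensus on both strands, with overlapping matches counted. It occurred in 5 of the 7 members with a promoter against 12.3% of 9230 tested genes with at least 1 window, and in 8.46% of 32851 windows of the same length. The windows are printed 5′ to 3′ on the gene's strand, with bases inside a match in capitals. They lie at chr7:19822706-19823005 (Bcl3, minus strand), chr12:55492598-55492897 (Nfkbia, minus), chr17:45555450-45555749 (Nfkbie, plus), chr19:46304487-46304786 (Nfkb2, plus, the first of 3 start sites), chr11:23770920-23771219 (Rel, minus) and chr19:5637291-5637590 (Rela, plus).
Bcl3: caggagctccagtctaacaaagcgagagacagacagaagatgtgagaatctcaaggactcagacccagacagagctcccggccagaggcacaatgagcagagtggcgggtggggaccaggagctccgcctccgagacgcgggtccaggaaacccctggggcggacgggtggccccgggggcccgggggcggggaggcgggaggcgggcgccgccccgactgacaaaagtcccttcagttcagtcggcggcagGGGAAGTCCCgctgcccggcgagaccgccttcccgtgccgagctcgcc
Nfkbia: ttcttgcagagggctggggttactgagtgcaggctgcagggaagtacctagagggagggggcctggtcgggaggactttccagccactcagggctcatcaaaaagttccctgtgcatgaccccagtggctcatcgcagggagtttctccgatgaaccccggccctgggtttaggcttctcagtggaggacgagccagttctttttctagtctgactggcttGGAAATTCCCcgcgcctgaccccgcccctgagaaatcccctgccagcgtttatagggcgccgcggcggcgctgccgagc
Nfkbie: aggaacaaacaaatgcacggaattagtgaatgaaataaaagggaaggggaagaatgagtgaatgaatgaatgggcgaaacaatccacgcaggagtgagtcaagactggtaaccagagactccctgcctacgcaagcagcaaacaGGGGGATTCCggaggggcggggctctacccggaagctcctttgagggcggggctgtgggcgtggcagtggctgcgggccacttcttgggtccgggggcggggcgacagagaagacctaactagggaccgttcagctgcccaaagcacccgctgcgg
Nfkb2: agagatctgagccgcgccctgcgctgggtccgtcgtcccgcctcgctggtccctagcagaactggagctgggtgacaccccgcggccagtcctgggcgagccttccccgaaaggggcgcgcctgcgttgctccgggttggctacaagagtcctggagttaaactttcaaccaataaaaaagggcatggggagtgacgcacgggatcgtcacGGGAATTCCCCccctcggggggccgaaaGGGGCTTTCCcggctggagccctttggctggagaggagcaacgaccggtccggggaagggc
Rel: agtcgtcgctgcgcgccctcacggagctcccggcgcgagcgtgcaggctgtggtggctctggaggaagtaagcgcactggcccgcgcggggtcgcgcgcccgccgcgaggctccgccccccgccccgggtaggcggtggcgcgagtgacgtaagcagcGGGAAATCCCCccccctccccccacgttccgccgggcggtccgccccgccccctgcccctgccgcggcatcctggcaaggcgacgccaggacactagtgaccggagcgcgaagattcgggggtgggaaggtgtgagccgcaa
Rela: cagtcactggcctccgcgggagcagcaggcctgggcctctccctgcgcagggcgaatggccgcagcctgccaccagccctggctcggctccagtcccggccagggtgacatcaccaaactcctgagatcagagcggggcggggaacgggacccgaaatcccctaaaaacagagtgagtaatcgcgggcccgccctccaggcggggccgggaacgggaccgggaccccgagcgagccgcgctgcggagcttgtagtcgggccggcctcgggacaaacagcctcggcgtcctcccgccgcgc

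Bcl3 had 1 match, GGGAAGTCCC, whose first base is base 3 after the start site and which reads as a match on both strands. Nfkbia had 1, GGAAATTCCC, on the opposite strand at base −29 from the start site, and Nfkbie had GGGGGATTCC at base −106. In Rel, 2 overlapping matches began at bases −92 and −91. The first Nfkb2 window held 3 matches, 2 of them overlapping at bases −39 and −38 and 1 more, GGGGCTTTCC, at base −11. At the other Nfkb2 start sites, GGGACTTTCC began at base 11 from the start in one and at base −225 in the other, which is the same stretch of genome, and the former also held GGAATGTCCC at base −236. Rela and Nfkbib, whose window is not printed, had 0 matches to these letters. Over tested genes with a window, 17.5% of 1108 genes called lower on THCaP, 10.8% of 1108 genes called higher and 11.7% of 7014 genes not called had a match in at least 1 window. These shares are descriptions, and a match is not evidence of binding.

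**Figure D1:**
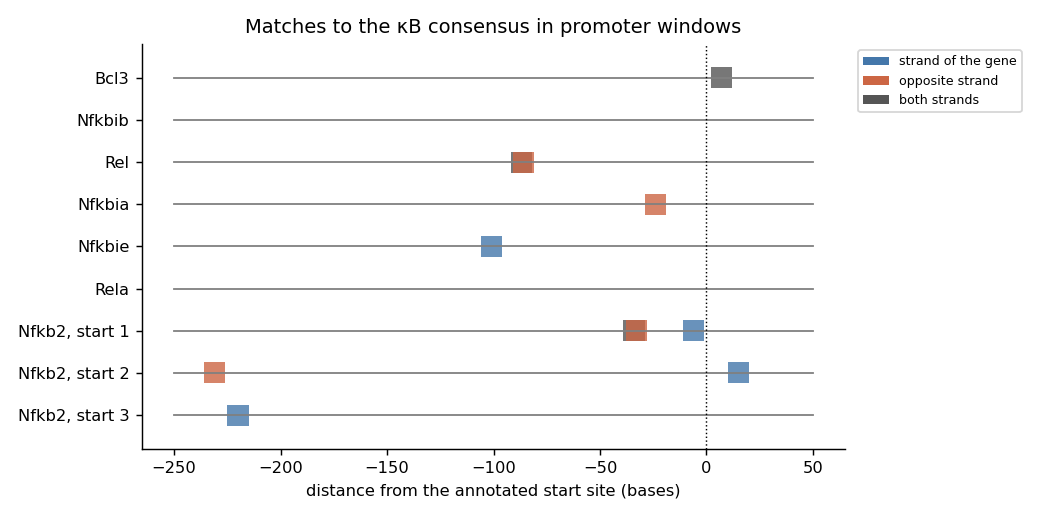
Matches to the κB consensus motif (boxes, coloured by strand) in RefSeq promoter windows of 7 members, by distance from the annotated start site in bases (dotted line at the start). Bcl3, Rel, Nfkbia, Nfkbie and all 3 Nfkb2 start sites have a match, and Nfkbib and Rela have 0.

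The libraries held 28000099 to 30317108 counts in all, and the members had between 338 counts (Bcl3, THCaP replicate 2) and 9698 counts (Nfkbia, TH replicate 2) in a library. Libraries of the same surface differed by more than sampling noise, with a chi-square per degree of freedom of 3.84 to 48.4. All 9 macrophage markers had counts, with a summed level of 2380 to 2910 CPM (counts scaled to a common library size) on TH and 2690 to 2970 CPM on THCaP. Mertk was barely detected, at a mean of 0.364 CPM. Markers of lymphoid cells summed to at most 0.713 CPM, of neutrophils to at most 0.0357 CPM and of stromal cells to at most 1.29 CPM. The 4 endothelial markers summed to 4.43 to 5.57 CPM on TH and 2.31 to 4.14 CPM on THCaP. Of these, Cdh5, Kdr and Tek had 3, 5 and 2 counts summed over TH libraries and 6, 3 and 2 over THCaP libraries. Most of the sum was thus Pecam1, and the part of these markers in the results was not tested. In bulk RNA, a smaller number of cells that express a gene and less RNA per cell cannot be told apart.

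Of all tested genes 12.0% were called lower on THCaP and 11.6% higher (edgeR's quasi-likelihood test, Benjamini-Hochberg adjusted p under 0.05), against 8 of 10 and 0 of 10 members. Both directions together came to 23.6% of tested genes. When libraries were scaled by their totals alone, 1063 genes were lower and 1904 higher in place of 1376 and 1333 with TMM factors, and the same 8 members were lower. The members' median log2 fold change was −0.63, and that of all tested genes 0.0064. In 9 of the 10 members all 3 THCaP libraries lay below all 3 TH libraries, a pattern found in 21.3% of tested genes, and in 0 of 10 all 3 lay above, against 22.1% of tested genes. The exception was Nfkb1. Fold changes are THCaP over TH, and group values are means ± SD of TMM-scaled CPM (n = 3 libraries a surface).

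**Figure D2:**
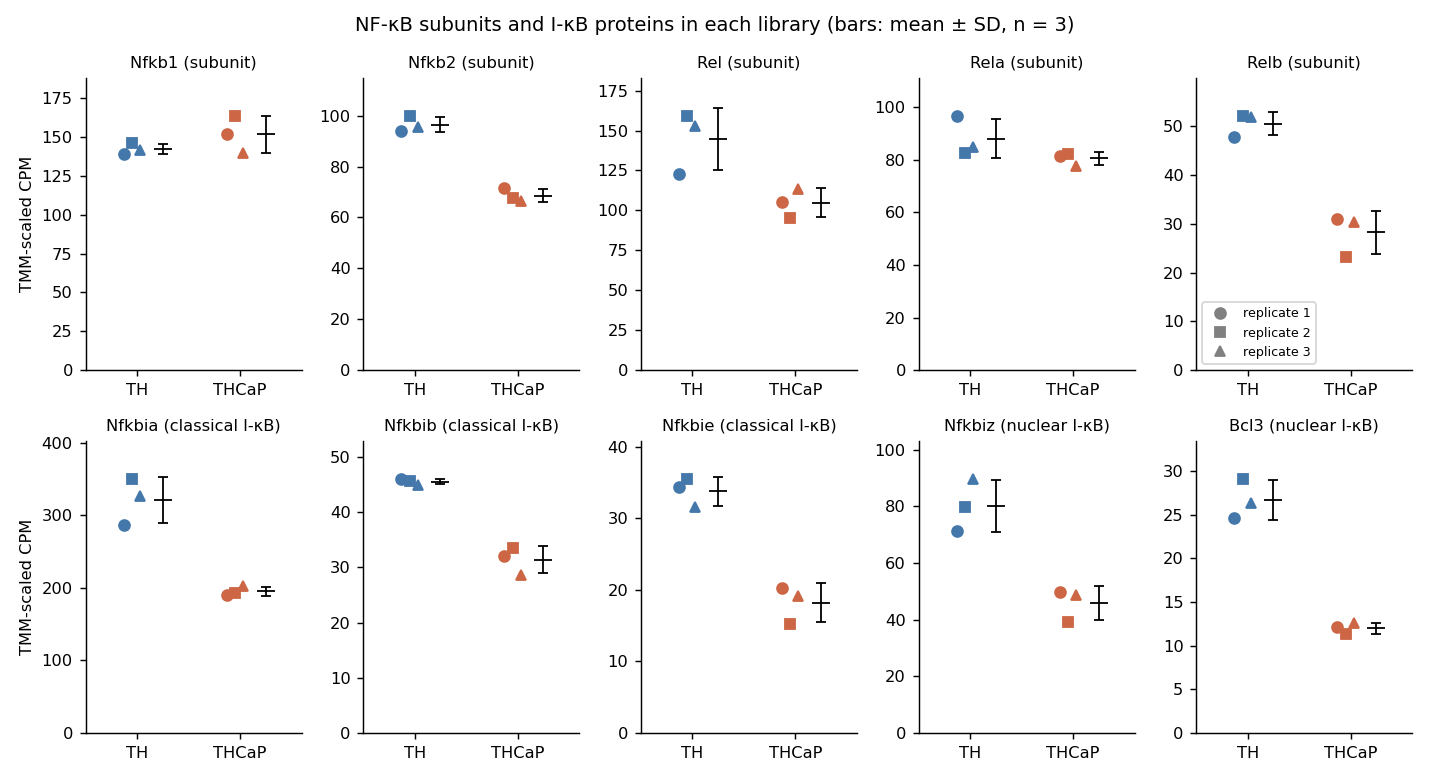
TMM-scaled CPM of each member in each of the 6 libraries (symbols mark the replicate, bars the mean ± SD over 3 libraries; every axis starts at 0). The surfaces overlap for Nfkb1, nearly touch for Rela and are apart for the other 8 members.

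Among the subunits, Relb showed the largest decrease. Relb, the main partner of processed Nfkb2 in the non-canonical branch of the pathway, stood at 47.8, 52.0 and 51.8 CPM in TH replicates 1, 2 and 3 and at 31.1, 23.2 and 30.4 CPM in THCaP replicates 1, 2 and 3. Every THCaP library lay below every TH library, and THCaP replicate 2 was the lowest. Relb fell 1.79-fold, from 50.6 ± 2.36 to 28.2 ± 4.38 CPM (−0.84 on the log2 scale, SE 0.12, edgeR adjusted p = 0.00366).

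Nfkb2, whose precursor also works as an inhibitor until it is cut, measured 93.9, 99.7 and 95.6 CPM in the TH libraries and 71.5, 67.5 and 66.6 CPM in the THCaP libraries. The replicates of each surface were close together, with a coefficient of variation of 3.09% on TH and 3.81% on THCaP. Nfkb2 fell 1.41-fold (−0.49, SE 0.07, edgeR adjusted p = 0.00462). The annotation places a non-coding gene and Psd on the opposite strand, both sharing exon bases with Nfkb2, and with the strand setting of the counting unknown, reads of overlapping exons cannot be assigned.

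Rel, which encodes c-Rel, a subunit most abundant in blood and immune cells, had 122.5, 158.8 and 152.7 CPM on TH and 105.3, 95.5 and 113.6 CPM on THCaP. TH replicate 1 was the lowest TH library and stood closer to the THCaP libraries than to the other TH libraries. Rel fell 1.38-fold (−0.46, SE 0.11, edgeR adjusted p = 0.0193). The call did not hold without TH replicate 2 (edgeR adjusted p = 0.0818), without TH replicate 3 (0.0796) or without THCaP replicate 1 (0.0714), with log2 fold changes of −0.40, −0.42 and −0.47. Of the 8 called members Rel was the only one that lost its call when 1 library was left out.

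Rela encodes p65, the subunit that drives most of the transcription by the canonical dimer. It measured 96.4, 82.7 and 84.8 CPM in TH replicates 1, 2 and 3 and 81.6, 82.2 and 77.7 CPM in the THCaP libraries. All THCaP values were below all TH values, but the highest THCaP and lowest TH libraries nearly met, and TH replicate 1 stood above the rest. Rela was not called (log2 fold change −0.13, 95% confidence interval −0.32 to 0.06, edgeR adjusted p = 0.279).

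Nfkb1, the partner of Rela in the canonical dimer, had 139.3, 145.9 and 141.8 CPM on TH and 152.0, 163.1 and 139.6 CPM on THCaP. The surfaces overlapped, since THCaP replicate 3 lay within the TH range while THCaP replicate 2 was the highest of all. Nfkb1 was not called (0.09, 95% confidence interval −0.09 to 0.27, edgeR adjusted p = 0.438). It was the only member with a positive log2 fold change, which stayed positive in all 14 alternative analyses (0.04 to 0.15). The confidence intervals allow a decrease of Rela by at most 0.32 and of Nfkb1 by at most 0.09 on the log2 scale, whereas the interval for Relb runs from −1.10 to −0.58.

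Ratios within a library do not depend on how libraries are scaled. The log2 ratio of Nfkb2 to Nfkb1 counts, the ratio of the precursor genes, was −0.57, −0.55 and −0.57 in the TH libraries and −1.09, −1.27 and −1.07 in the THCaP libraries. It varied little on TH (SD 0.0114) and was lower by 0.58 on average on THCaP. The log2 ratio of Relb to Rela was −1.01, −0.67 and −0.71 on TH and −1.39, −1.83 and −1.35 on THCaP, again with no overlap. That of Rel to Rela was 0.35, 0.94 and 0.85 on TH and 0.37, 0.22 and 0.55 on THCaP. In this ratio TH replicate 1 lay inside the THCaP range, so Rel and Rela did not part consistently between the surfaces.

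To compare levels between genes, reads must be divided by gene length. The deposited FPKM (fragments per gene, corrected for its length and for library size) use a length of 10990 bases for Nfkb2, which is 2.86 times its longest transcript in GENCODE vM21 (3846 bases) and longer than the annotated gene (8066 bases). For Relb the length was 6167 bases against a longest transcript of 3273 bases, and for the other 8 members the ratio was between 0.811 and 1.06. Such excess is not rare, as 15.6% of 11186 tested genes with an annotated transcript had a ratio above 1.5. FPKM therefore place Nfkb2 and Relb lower relative to the other subunits than the annotated transcripts do. The edgeR fold changes between the surfaces come from counts and do not use the length. The annotation behind the counts was not given, and whether the counts of Nfkb2 and Relb include other sequence was not tested. The alternative analyses on log2 FPKM add a constant before the logarithm and so depend on it.

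By FPKM, Nfkb1 (33.8 ± 0.80 on TH and 37.3 ± 2.81 on THCaP) and Rela (30.1 ± 2.66 and 28.6 ± 0.83) were the most abundant subunits. Rel followed with 19.0 ± 2.49 and 14.3 ± 1.27. Nfkb2 (8.61 ± 0.27 and 6.35 ± 0.25) and Relb (8.05 ± 0.35 and 4.66 ± 0.73) were the lowest, and on TH the pair differed by about their spread. Per longest annotated transcript the order changed on TH to Nfkb1 (33.7 ± 0.80), Rela (31.8 ± 2.81), Nfkb2 (24.6 ± 0.78), Rel (19.0 ± 2.49) and Relb (15.2 ± 0.65), with Nfkb1 and Rela not apart beyond their spread. On THCaP that order was Nfkb1 (37.2 ± 2.80), Rela (30.2 ± 0.87), Nfkb2 (18.1 ± 0.71), Rel (14.3 ± 1.27) and Relb (8.78 ± 1.39). On both scales and both surfaces Relb was the least abundant and Nfkb1 the most.

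Nfkb2 and Relb, the subunits of the non-canonical dimer, together made up 16.3%, 17.0% and 16.9% of the summed FPKM of the 5 subunits in the TH libraries. In the THCaP libraries they made up 12.7%, 10.9% and 12.6%. The share was 4.64 percentage points lower on THCaP, with no overlap between the surfaces. Per longest annotated transcript the share was 32.0 ± 0.59% on TH and 24.8 ± 1.54% on THCaP, a difference of −7.20 percentage points. The share of Nfkb1 was higher on THCaP, at 40.9 ± 2.36% against 33.9 ± 0.32% by FPKM. The summed subunit level itself was 99.6 ± 1.44 FPKM on TH and 91.2 ± 2.13 on THCaP, a difference of −8.43% between the means.

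**Figure D3:**
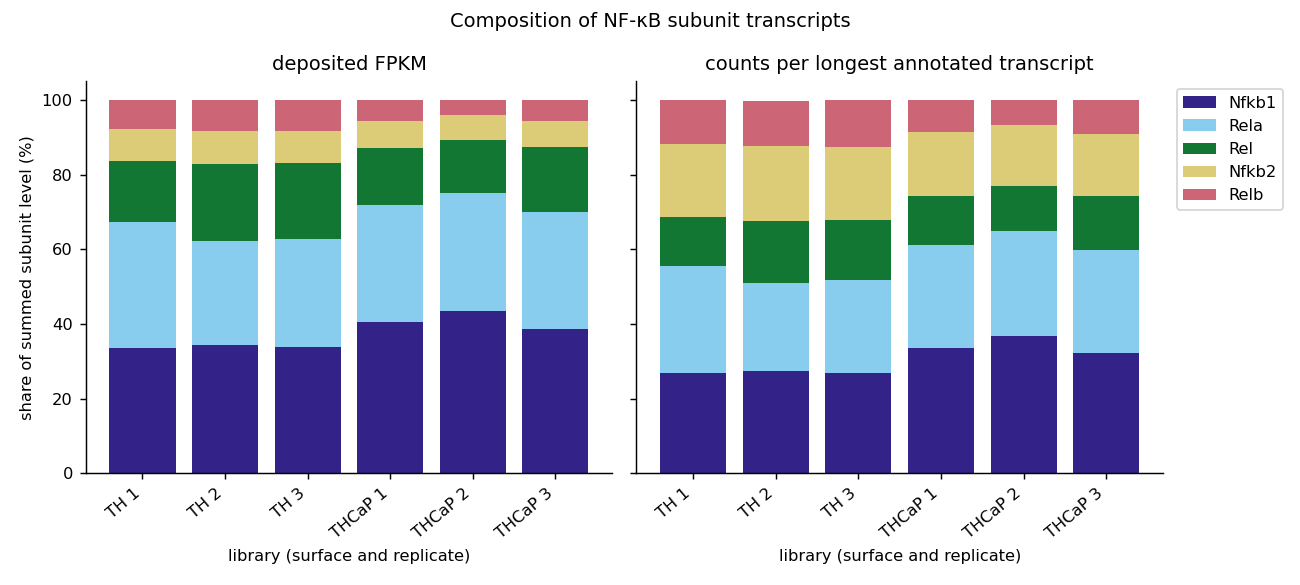
Share (%) of each subunit in the summed level of the 5 NF-κB subunits in each library, from deposited FPKM (left) and from counts per longest annotated transcript (right). Nfkb2 and Relb take a smaller share in each THCaP library than in any TH library on both scales, and the length used sets how large that share is.

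All 3 classical I-κB genes fell. Nfkbia encodes I-κBα, the fast-acting inhibitor that NF-κB induces as its own brake, and it was the most abundant member. It measured 286.5, 349.5 and 326.2 CPM in TH replicates 1, 2 and 3 and 189.7, 193.0 and 202.0 CPM in the THCaP libraries. The THCaP libraries were tightly grouped and far below the lowest TH library, while TH varied more (coefficient of variation 9.93% against 3.28%). Nfkbia fell 1.65-fold, from 320.7 ± 31.8 to 194.9 ± 6.39 CPM (a log2 change of −0.72, SE 0.09, edgeR adjusted p = 0.00291).

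Nfkbie encodes I-κBε, an inhibitor with slower feedback kinetics. Its values were 34.3, 35.5 and 31.5 CPM on TH and 20.3, 15.2 and 19.2 CPM on THCaP, where replicate 2 was the lowest. Nfkbie fell 1.85-fold (−0.89, SE 0.12, edgeR adjusted p = 0.00344), the second largest decrease among the members. Nfkbib encodes I-κBβ, which is less tied to rapid feedback. It stood at 46.0, 45.7 and 45.0 CPM on TH, the smallest spread of any member (coefficient of variation 1.14%), and at 32.0, 33.6 and 28.6 CPM on THCaP. Nfkbib fell 1.45-fold (−0.54, SE 0.09, edgeR adjusted p = 0.006). It shares exon bases with Ccer2 and Sirt2 on the opposite strand, so its reads carry the same uncertainty as those of Nfkb2.

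Of the nuclear I-κB genes, the members Bcl3 and Nfkbiz fell, while Nfkbid, which is not a member, was not called (64.7 ± 11.3 CPM on TH and 62.5 ± 5.34 on THCaP, −0.05, edgeR adjusted p = 0.796). Bcl3, which binds DNA-bound dimers of processed Nfkb1 or Nfkb2 and modifies their activity, had 24.6, 29.1 and 26.4 CPM on TH and 12.1, 11.3 and 12.6 CPM on THCaP. The lowest TH library was 1.96 times the highest THCaP library, the widest gap of any member. Bcl3 fell 2.22-fold (−1.15, SE 0.11, edgeR adjusted p = 0.000787), the only change above 2-fold among the members, and ranked 123rd among the decreases of the 11480 tested genes. An antisense gene shares exon bases with it.

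Nfkbiz encodes I-κBζ, a nuclear cofactor needed for a second wave of LPS-induced genes. It measured 71.1, 79.8 and 89.5 CPM in TH replicates 1, 2 and 3 and 49.7, 39.0 and 48.8 CPM in the THCaP libraries. TH replicate 3 was the highest and THCaP replicate 2 the lowest, and the surfaces did not overlap. Nfkbiz fell 1.75-fold, from 80.2 ± 9.20 to 45.8 ± 5.90 CPM (−0.81, SE 0.12, edgeR adjusted p = 0.0045).

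**Figure D4:**
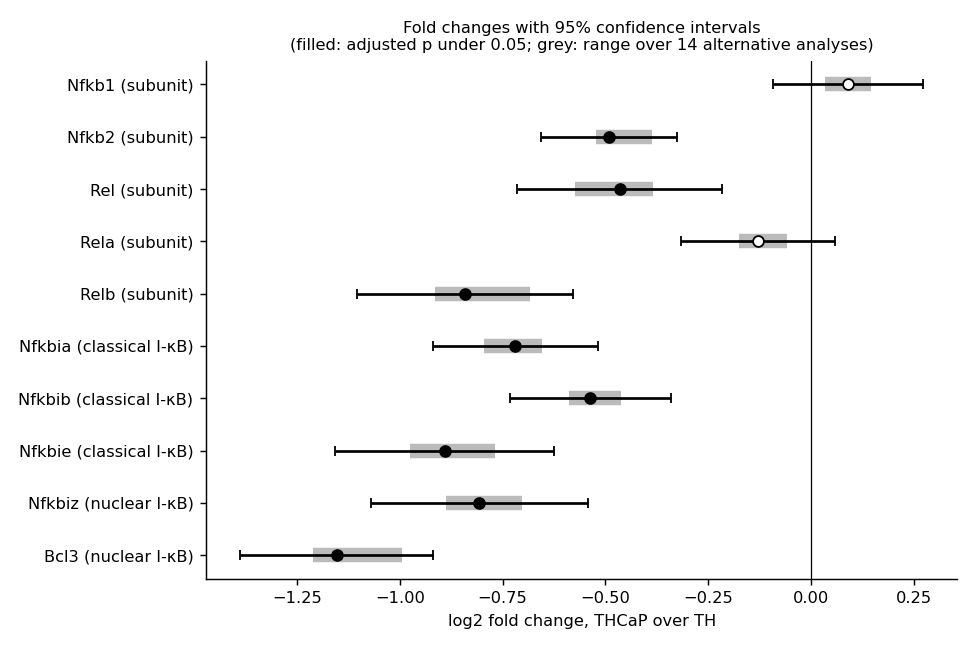
Log2 fold change of each member, THCaP over TH, with its 95% confidence interval from edgeR (points; filled where the adjusted p is under 0.05) and the range over 14 alternative analyses (grey). The intervals of Nfkb1 and Rela include 0, and those of the other 8 members lie below it, from −1.39 for the lower end of Bcl3 to −0.22 for the upper end of Rel.

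Within the I-κB genes the proportions differed less than the sum. Nfkbia made up 74.2 ± 1.22% of the summed FPKM of the 5 I-κB genes on TH and 75.2 ± 1.32% on THCaP. The share of Bcl3 was lower on THCaP, at 5.39%, 5.39% and 5.17% in the TH libraries and 4.05%, 3.84% and 4.06% in the THCaP libraries. The classical inhibitors summed to 234.0 ± 19.5 FPKM on TH and 148.3 ± 3.36 on THCaP, a difference of −36.6%. Bcl3 and Nfkbiz together, without Nfkbid, summed to 34.6 ± 2.80 and 18.7 ± 1.92, a difference of −45.9%.

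Inhibitor transcripts were thus lower relative to subunit transcripts on THCaP. The log2 ratio of summed classical I-κB to summed subunit FPKM was 1.12, 1.32 and 1.25 in the TH libraries and 0.66, 0.67 and 0.78 in the THCaP libraries. The difference was −0.53, and −0.46 per longest annotated transcript. The log2 ratio of Bcl3 and Nfkbiz together to classical I-κB was −2.77, −2.82 and −2.68 on TH and −2.89, −3.15 and −2.94 on THCaP, a difference of −0.23. That last separation was narrow, and from raw counts, with no division by length, the surfaces overlapped (−0.18). These sums, and the share of Nfkb2 and Relb, are given as descriptions, because the members were chosen with earlier results known. An exact two-sided permutation test of 3 against 3 libraries cannot give a p below 0.1. For single genes, the log2 ratio of Nfkbia to Rela counts was 1.57, 2.08 and 1.94 on TH and 1.22, 1.23 and 1.38 on THCaP.

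Within a surface the members did not all follow the same library. TH replicate 1 was the lowest TH library for 7 of the 10 members (Nfkb1, Nfkb2, Rel, Relb, Nfkbia, Nfkbiz and Bcl3) but the highest for Rela and Nfkbib. THCaP replicate 2 was the lowest THCaP library for 5 members (Rel, Relb, Nfkbie, Nfkbiz and Bcl3) and the highest for 3 (Nfkb1, Rela and Nfkbib). Rela and Nfkbib shared their highest TH, highest THCaP and lowest THCaP libraries. These orders are descriptions of 3 libraries a surface.

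The other genes of the pathway were described by 5 lists. Of 11 upstream kinases and their adaptors, 2 fell and 0 rose, with a median log2 fold change of −0.11. That is 18.2% called lower, against 12.0% of all tested genes. Ikbke, an I-κB kinase relative that also acts in interferon signalling, fell 1.75-fold (−0.81, SE 0.09, edgeR adjusted p = 0.00195). Map3k8, the kinase Tpl2, which is held by the Nfkb1 precursor, fell 1.59-fold (−0.67, SE 0.13, edgeR adjusted p = 0.0106), a call lost without TH replicate 2 or TH replicate 3 (adjusted p up to 0.0506). The core I-κB kinase genes Chuk, Ikbkb and Ikbkg were not called (0.01, −0.07 and −0.11, edgeR adjusted p = 0.951, 0.523 and 0.463). Of 5 tested subunits of the ubiquitin ligase that marks I-κB for degradation, 0 fell and 1, the scaffold Cul1, rose (0.38, SE 0.09, edgeR adjusted p = 0.0195), against 12.0% lower and 11.6% higher over all tested genes. Without TH replicate 2, without TH replicate 3 or without THCaP replicate 1 Cul1 was not called (adjusted p up to 0.0812), with a log2 fold change of 0.36 to 0.39. Fbxw11, a substrate receptor (−0.14, SE 0.09, edgeR adjusted p = 0.274), and the linker Skp1 (0.25, SE 0.10, edgeR adjusted p = 0.1) were not called.

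Of 14 ubiquitin-based and RNA-based regulators of the pathway, 7 fell and 0 rose, against 12.0% lower and 11.6% higher over all tested genes. The median log2 fold change of the 14 was −0.28. Scaling by library totals alone reduced the number lower to 4, and leaving out either of TH replicates 2 and 3 or of THCaP replicates 1 and 2 also gave 4. The ribonuclease gene Zc3h12a fell 1.76-fold (−0.81, SE 0.12, edgeR adjusted p = 0.00465). Tnfaip3, which encodes the ubiquitin-editing inhibitor A20, fell 1.69-fold (−0.76, SE 0.15, edgeR adjusted p = 0.00964). Its binding partners Tnip1 (−0.69, SE 0.09) and Tnip3 (−0.60, SE 0.08) fell. Tnip2 (−0.36) and Rnf31 (−0.33), a subunit of the linear ubiquitin ligase, were called at edgeR adjusted p = 0.0447 and 0.0446 and were among those that lost the call in these alternatives.

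Of 10 regulators of the non-canonical branch, 5 fell and 0 rose, against 12.0% lower and 11.6% higher over all tested genes. The median log2 fold change of the 10 was −0.27. The receptor gene Cd40 fell 3.27-fold (−1.71, SE 0.19, edgeR adjusted p = 0.00166), from 35.5 ± 3.93 to 10.9 ± 3.08 CPM. The ubiquitin ligases Birc3 (−0.90, SE 0.10) and Birc2 (−0.63, SE 0.11) and the TNF receptor Tnfrsf1b (−0.50, SE 0.09) fell. Tnfrsf11a, the receptor of the osteoclast factor RANKL, fell by 0.29 on the log2 scale, a call lost when any library other than TH replicate 1 and THCaP replicate 3 was left out (adjusted p up to 0.11, log2 fold changes of −0.30 to −0.25). Map3k14, the kinase that starts this branch, stood at 55.2 ± 1.09 CPM on TH and 46.5 ± 2.91 on THCaP and was just short of the threshold (−0.25, SE 0.08, edgeR adjusted p = 0.051). It was called lower with DESeq2 (adjusted p = 0.0341), RLE factors (0.0496) and a filter of 5 CPM in 3 libraries (0.0438). Without THCaP replicate 3 it was also called (0.0364), but not without any other single library (0.0775 to 0.139). Library totals (0.104), no filter (0.0673), a replicate block (0.0867) and limma on either log2 FPKM scale (0.101) gave no call.

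Of 30 tested classic target genes of NF-κB, 21 fell and 0 rose, with a median of −0.84. This came to 70.0% called lower, against 12.0% lower and 11.6% higher over all tested genes. The 6 with the largest decreases at 5 CPM or more were Ccl5, Ptgs2, Cd40, Nos2, Ccl4 and Traf1, from −2.38 (SE 0.17) for the chemokine Ccl5 to −1.17 (SE 0.12) for the signalling adaptor Traf1. Negative log2 fold changes were found in 28 of the 30, against 5654 of all 11480 tested genes. The 28 include 7 of the 9 not called, and Sod2 and Ccl2 had positive log2 fold changes. Ccl2 was barely detected, at 0.40 ± 0.41 CPM on TH and 0.70 ± 0.30 on THCaP. Il1b, which was negative and not called, was also barely detected, at 0.57 ± 0.27 and 0.40 ± 0.09 CPM. Among those not called, the survival gene Bcl2l1 and the superoxide dismutase gene Sod2, also known targets, had log2 fold changes of −0.04 and 0.17 (edgeR adjusted p = 0.79 and 0.237). Il6 and Vcam1 were below the filter, with 4 and 1 counts summed over the TH libraries and 1 and 0 over the THCaP libraries. Il12b and Cxcl1, also listed as targets, had no row in the count table and could not be examined. Lists share members, so Cd40, Birc3, Tnfaip3, Chuk and Map3k14 stand under more than 1 list.

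**Figure D5:**
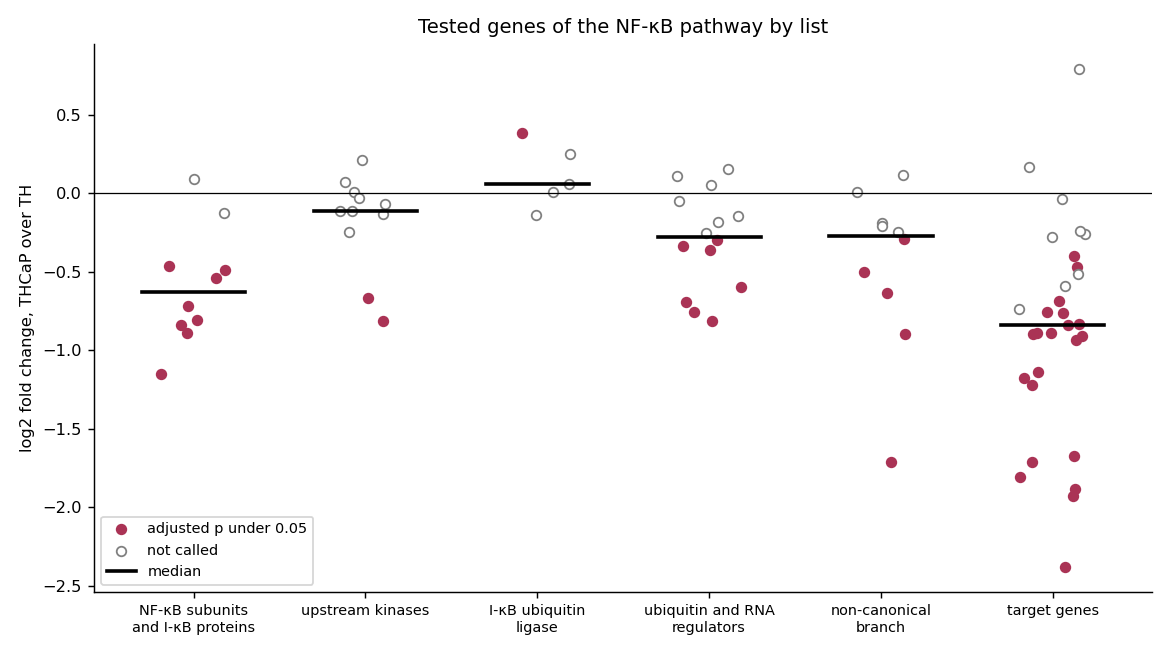
Log2 fold change, THCaP over TH, of each tested gene in the 10 members and 5 pathway lists (points; filled where the edgeR adjusted p is under 0.05; black bars mark medians; sideways position has no meaning). Medians run from 0.062 for the ubiquitin ligase to −0.84 for the target genes.

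Bcl3, the member with the largest change, was compared with 9680 other tested genes of at least 5 CPM by the Pearson correlation of log2 CPM over the 6 libraries. The closest were the chemokine gene Cxcl16 (r = 0.999), the kinase gene Mknk2 (0.998), the adhesion molecule gene Icam1 (0.998), Rhbdf2 (0.997), whose product takes part in TNF release, and the adaptor gene Grap (0.997). Their sizes of change differed, from −0.33 for Mknk2 to −1.39 for Grap. The 6 libraries fall into a TH and a THCaP group. Any gene lower on THCaP by far more than its spread within a surface, as Bcl3 is, thus scores high. By this signed correlation, 420 of the 9680 genes had r above 0.95.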

How the data were processed

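RNA of 6 Raw264.7 samples (3 TH, 3 THCaP, grouped by their labels) was sequenced. The deposited counts are whole reads per gene symbol. The submitters' processing notes name fastp, HISAT2, HTSeq and the build mm10. Annotation, versions and strand setting: not given in the sources used here. The deposited FPKM were made by the authors from these counts: for 100% of tested genes the implied gene length was whole within 0.01 bases in every library with at least 10 counts. Counts were analysed with edgeR 4.0.16 in R 4.3.3 over all libraries: filterByExpr (minimum count 10, total 15), TMM factors, robust quasi-likelihood F test, no covariate, Benjamini-Hochberg adjustment over 11480 genes, threshold 0.05. The SE is the absolute log2 fold change over the square root of F. The procedure was tested on simulated data. Gene positions and transcript lengths came from GENCODE vM21 (GRCm38, the assembly of mm10) and promoters from RefSeq (GRCm38.p6). Library totals were 28000099 to 30317108 counts. Alternatives were DESeq2 1.42.0, RLE factors, library totals, no filter, 5 CPM in 3 libraries, a replicate block, each library left out, and limma 3.58.1 on log2(FPKM + 1) and log2(FPKM + 0.1) at a mean FPKM of at least 1. For shares and ratios they were raw counts and, chosen after seeing the data, longest-transcript lengths. All 10 members were named, and from each list up to 6 called genes of at least 5 CPM with the largest change, or the 2 most abundant where fewer than 2 were called. Other listed genes named (Chuk, Ikbkb, Ikbkg, Nfkbid, Map3k14, Map3k7, Bcl2l1, Sod2, Il6, Vcam1, Mertk and those under more than 1 list) and the single-gene ratios were chosen after their values were seen. Ccl2, Il1b and the endothelial markers named singly were also chosen after their values were seen. Members and lists were chosen with earlier results of these data known.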

Additional observations from a re-analysis of the deposited data

How the results depend on the processing

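The 8 members lower and 0 higher were found in every alternative with all 6 libraries, and 7 to 8 lower and 0 higher when a library was left out. Over all genes, leaving out 1 library gave 465 to 2020 lower and 291 to 2145 higher. With the replicate number as a block, 8 members, 1457 genes lower and 1424 higher were called. Deviations of same-numbered libraries correlated at −0.02, −0.0723 and 0.0598, and the best match of a library was not always its own number. With 3 libraries a surface, such correlations cannot show whether same-numbered libraries were handled together, and the labels do not say. Kinases called higher numbered 1 in place of 0 with library totals, log2(FPKM + 1) or log2(FPKM + 0.1), namely Map3k7 (0.26, 0.25 and 0.27), and 1 to 3 were lower when a library was left out. Ligase genes called higher numbered 0 to 2 when a library was left out. Regulators called lower numbered 4 in place of 7 with library totals and on both FPKM scales, and 4 to 7 without single libraries. Non-canonical genes called lower numbered 4 to 6 over all alternatives, in place of 5. Target genes called higher numbered 0 to 1 and lower 18 to 22 without single libraries. The 1 was the barely detected Ccl2 without TH replicate 1. The share of Nfkb2 and Relb differed by −5.85 points from raw counts and −7.20 points per longest transcript in place of −4.64, and by −4.96 to −4.06 without single libraries. Of 32 called genes among those named, 25 stayed called under all alternatives in which they were tested, and 0 reversed. The causes were not tested. The lowest count of a member in a library was 338, and the effect of depth on the calls was not tested.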
